A study of Mus musculus with 8 samples.

Results

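The IRF (interferon regulatory factor) genes are a family of transcription factors, and 8 of them, Irf1, Irf2, Irf3, Irf4, Irf5, Irf7, Irf8 and Irf9, were followed here by their gene symbol. All 8 were found among the 22829 genes listed, and all 8 passed the filter of a mean of at least 10 normalized counts (reads divided by a size factor per sample), which kept 16982 genes. RNA seq gave their levels in 8 samples of mouse Th17 cells, 4 with WT-ROR-γt and 4 with K187R-ROR-γt. ROR-γt is the transcription factor that directs Th17 differentiation, and K187R-ROR-γt carries arginine in place of a lysine that accepts the small protein SUMO. The question was whether loss of this SUMOylation site changed the transcriptome of the cells.

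Cells of both groups came from ROR-γt-/- mice, so endogenous ROR-γt was absent before the introduced form was supplied. Splenic CD4+ T cells were isolated on magnetic beads, infected with lentivirus carrying one of the ROR-γt forms, and cultured under Th17 polarizing conditions. The groups therefore share the deletion, the virus and the culture, and differ in the ROR-γt form. The culture is a bead-purified population and not a clone, no untransduced ROR-γt-/- sample entered the comparison, and neither age nor sex of the mice is given for these samples. The series description speaks of 4 WT and 4 mutant mice, whereas the sample labels and the methods describe reconstituted cells. No source states whether the 4 samples of a group are all separate animals or separate cultures. The p-values below therefore measure the spread between these samples, which may be technical in part.

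IRF proteins share an N-terminal DNA-binding domain that contacts GAAA repeats, the core of the interferon-stimulated response element. IRF1 activates and IRF2 mostly represses through the same elements, IRF3 and IRF7 are phosphorylated after viral nucleic acid is sensed and switch on type I interferon genes, and IRF9 is the DNA-binding subunit of a complex that forms after interferon signalling. IRF4 is induced by T cell receptor signals and is required for Th17 differentiation, where it binds composite sites together with BATF and JUN proteins, while its close relative IRF8 and the more distant IRF5 are best known from myeloid cells, dendritic cells and B cells.

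Between 52456804 and 74676721 reads per sample fell on genes. The T cell genes Cd3e, at 20844 to 27404, and Cd4, at 15147 to 20882, were high in every sample. So was the myeloid marker Lyz2, at 17025 to 57778. Its mean over the 8 samples, 36565, was above those of Cd3e, 24456, and Cd4, 17546. The other myeloid markers listed below had lower means than Cd4. The samples fell into 3 sets that the groups do not explain, found by clustering 16848 genes with the IRF genes and all listed genes left out. WT replicates 1 and 3 and K187R replicate 1 made up set 1. WT replicate 2 joined K187R replicates 2 and 3 in set 2, and replicate 4 of each group made up set 3. Xist, the RNA that coats the inactive X chromosome, read between 13564 and 17373 in set 2 and between 3.56 and 23.7 in the other 5 samples. Both groups thus mixed samples with high and with low Xist, unequally, so the samples of a group did not all come from the same animal. The sets were derived from these data, no label names them, and their origin was not tested.

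Irf4 was by far the most abundant IRF transcript of these Th17 cells. For comparison between genes, normalized counts were divided by the kilobases of exon of each gene. Irf4 reached 8008 ± 602 (SD, n = 8) per kilobase, and 1.49% of the 16958 genes with a length ranked above it. Irf1 followed at 2305 ± 475 per kilobase and Irf3 at 1673 ± 228. Irf4 lay above Irf1 in every sample, 3.47-fold on average, whereas the ranges of Irf1 and Irf3 overlapped, with Irf1 the higher in 7 of 8 samples. Irf2, Irf9 and Irf8 formed the middle of the order. Irf2 stood at 1073 ± 122, Irf9 at 1018 ± 88.8 and Irf8 at 781 ± 241 per kilobase, and each overlapped its neighbour in this trio, the upper gene being higher in 6 of 8 samples in both pairs. Irf3 exceeded Irf2 in all 8 samples, on average 1.56-fold. The lowest levels belonged to Irf5 at 340 ± 101 and Irf7 at 122 ± 37.6 per kilobase, with 43.9% and 61.4% of genes above them. Irf8 was 2.30-fold above Irf5, and Irf5 was 2.79-fold above Irf7, again without overlap of their ranges.

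**Figure D1:**
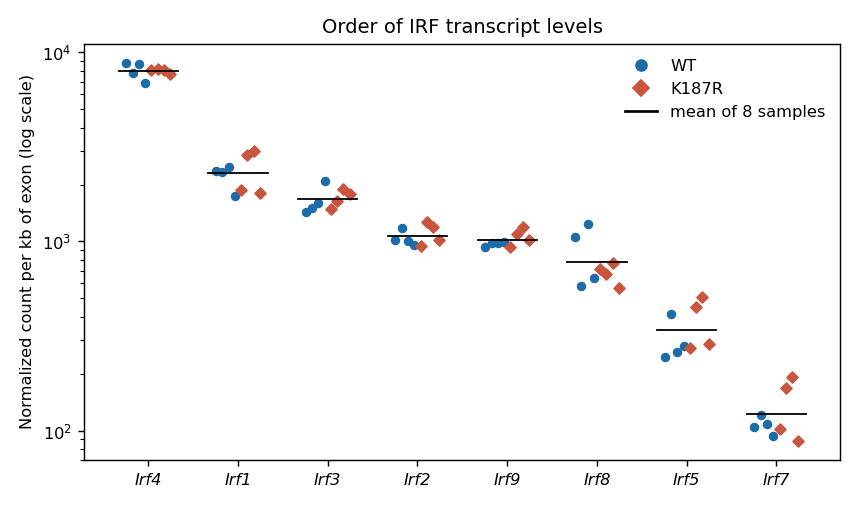
Normalized counts per kilobase of exon (log axis) of the 8 IRF genes, ordered by their mean. Points are single samples, circles for WT-ROR-γt and diamonds for K187R-ROR-γt, and each line is the mean of 8 samples. Irf4 stands alone at the top with a mean of 8008, Irf7 lies lowest at 122, and the samples of both groups intermix in every column.

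No IRF gene passed the test for a difference between Th17 cells with WT-ROR-γt and with K187R-ROR-γt. By limma, 0 of 8 had an adjusted p under 0.05, where the share of all genes was 0%, and 0 of 8 had an unadjusted p under 0.05, where 4.39% of all genes did (2.75% higher and 1.64% lower in K187R-ROR-γt). The limma adjusted p-values of the 8 genes lay between 0.921 and 0.996. edgeR and DESeq2 on the recovered reads also called 0 of 8, while over all genes they called 0% and 0.183%. The exact permutation p-values ranged from 0.20 to 1, with 0.0286 the smallest that 4 against 4 samples can give. All 8 genes had overlapping groups, whereas in 2.46% of all genes the 4 samples of one group lay entirely above those of the other. Log2 fold changes (K187R minus WT) were positive for 7 genes and negative for Irf8, with a median of 0.08 beside -0.0062 over all genes tested.

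**Figure D2:**
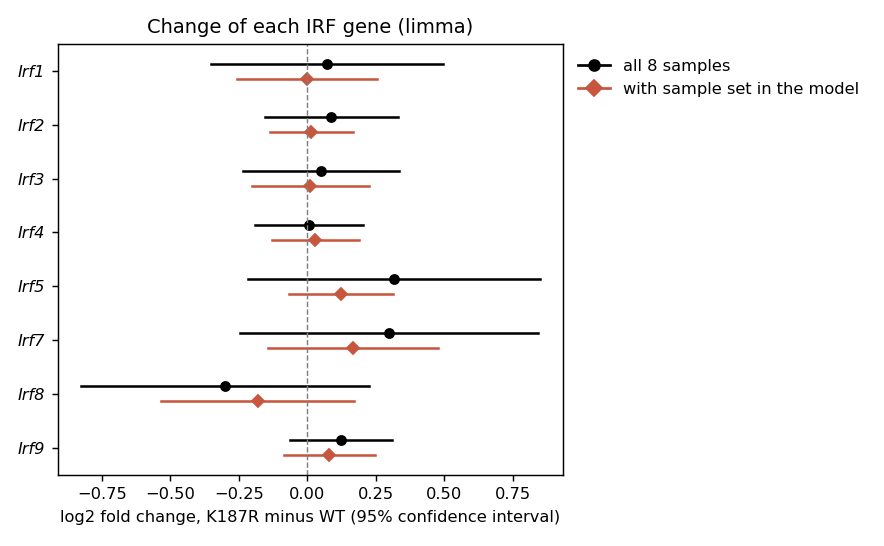
Log2 fold change of each IRF gene, K187R minus WT, with its 95% confidence interval from limma. Black circles use all 8 samples and red diamonds add the sample set to the model. Every interval spans 0, and each interval is narrower with the set in the model.

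Irf4, the member that Th17 differentiation requires, differed 1.28-fold between its lowest and its highest sample. WT-ROR-γt samples 1 to 4 held 43116, 37988.5, 42321 and 33713.5 normalized counts, and K187R-ROR-γt samples held 39742, 40144, 39592.5 and 37473. The K187R-ROR-γt samples all fell inside the range of the WT-ROR-γt samples. The means were 39285 ± 4344 and 39238 ± 1199 (SD, n = 4 each), and the log2 fold change was 0.0046 with a standard error of 0.0880 and a limma adjusted p of 0.996. The 95% confidence interval, -0.19 to 0.20 on the log2 scale, spans a fold change from 0.875 to 1.15. The lowest sample of each group was replicate 4, and the means of sets 1, 2 and 3 were 41726, 39242 and 35593. Irf4 (ENSMUSG00000021356) lies on the plus strand at chr13:30749226-30766976 of GRCm38, and no other gene overlaps its exons.

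Irf8, the relative of Irf4 known from myeloid and B cell development, had the only negative log2 fold change of the family. WT-ROR-γt samples 1 to 4 read 7453, 4096, 8742 and 4523 normalized counts, and K187R-ROR-γt samples read 5055, 4747, 5457 and 3988. WT replicates 1 and 3 stood clear of all other samples, and WT replicates 2 and 4 lay within the K187R-ROR-γt range. The group means, 6203 ± 2256 and 4812 ± 622 (SD, n = 4 each), gave a log2 fold change of -0.30 with a standard error of 0.234, a 95% confidence interval from -0.83 to 0.22, and a limma adjusted p of 0.921. Within sets 1, 2 and 3 the difference was -0.67, 0.31 and -0.18, so the sign was not shared. Without WT replicates 3 or 1 the log2 fold change was -0.11 or -0.19, without WT replicate 2 it was -0.48, and without the samples of set 2 it was -0.57.

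The samples richest in Irf8 had the lowest mean level of myeloid markers. A list of 10 myeloid markers, Lyz2, Csf1r, Itgam, Adgre1, Cd14, Fcer1g, Tyrobp, Cd68, S100a8 and Mpeg1, had a mean log2 value of 9.99 and 10.09 in WT replicates 1 and 3, against 10.68 to 11.50 in the other 6 samples. Cd14 and Cd68 did not follow this order. Cd14 read 558 and 676 in WT replicates 1 and 3 against 376 in K187R replicate 1, and Cd68 read 1029 in WT replicate 3 against 1021 in WT replicate 2. The summed level of the list ran from 27030.3 to 80535.5 normalized counts in WT-ROR-γt and from 47010.2 to 84963 in K187R-ROR-γt samples, and no marker was at 0 throughout. In these bulk samples fewer cells of a type and less RNA per cell cannot be told apart. The part of myeloid RNA in the Irf8 values was not tested.

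The within-sample ratio of Irf4 to Irf8, which does not depend on scaling between samples, was higher on average in K187R-ROR-γt samples without passing its test. On the log2 scale of counts it was 2.73 ± 0.41 in WT-ROR-γt and 3.04 ± 0.16 in K187R-ROR-γt samples (SD, n = 4 each). The difference was 0.31 (exact two-sided permutation p = 0.257). With single samples left out it ran from 0.16 (exact p = 0.486) without WT replicate 3 to 0.47 (exact p = 0.0571) without WT replicate 2. Irf4 exceeded Irf8 in reads in every sample, from 4.84-fold in WT replicate 3 to 9.40-fold in K187R replicate 4. Within sets 1, 2 and 3 the difference was 0.57, -0.24 and 0.33.

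**Figure D3:**
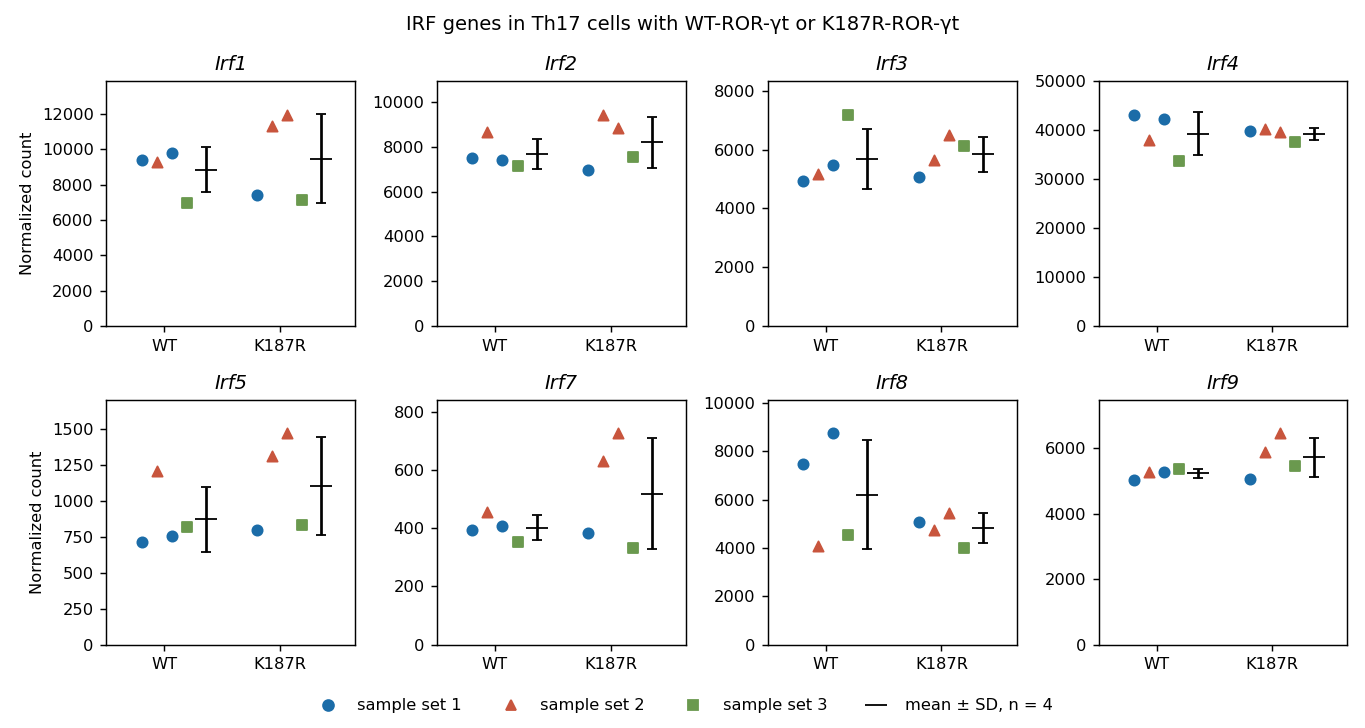
Normalized counts of each IRF gene (linear axes from 0) in the 4 WT-ROR-γt and 4 K187R-ROR-γt samples, marked by sample set, with the mean ± SD of each group (n = 4). Groups overlap in all 8 panels, the triangles of set 2 lie on top for Irf2, Irf5 and Irf7, and in the Irf8 panel WT replicates 1 and 3 (7453 and 8742) stand apart.

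Irf1 and Irf2, the activator and repressor pair of interferon responses, carry letters in their own promoters that match response elements of the interferon pathway. RefSeq promoters of GRCm38.p6 (250 bases before to 50 after each start) were searched on both strands for the core of the interferon-stimulated response element (a pair of GAAA runs with any 2 bases between), the STAT site TTCNNNGAA (GAS) and the AP-1 site TGANTCA. All 8 genes matched, with 11 promoters. The response element letters occurred in the promoter of Irf2 alone, against 3.44% of all 32851 promoters, and GAS letters in promoters of Irf1, Irf2 and Irf8, against 8.30%. AP-1 letters were in none of the 11, against 7.81%. Shown are 100 bases on the plus strand around the matches, in capitals, for Irf1 (chr11:53769878-53769977), Irf2 (chr8:46739495-46739594) and Irf8 (chr8:120736150-120736249). They are printed so that the elements can be seen beside the values of the genes that carry them.
Irf1: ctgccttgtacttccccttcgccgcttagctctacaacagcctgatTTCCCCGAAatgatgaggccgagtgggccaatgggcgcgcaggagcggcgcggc
Irf2: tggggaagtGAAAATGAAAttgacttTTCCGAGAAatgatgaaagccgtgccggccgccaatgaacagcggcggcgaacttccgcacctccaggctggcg
Irf8: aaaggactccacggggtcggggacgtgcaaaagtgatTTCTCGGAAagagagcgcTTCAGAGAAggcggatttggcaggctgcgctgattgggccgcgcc
The GAS letters of Irf1 begin 90 bases before the start, the response element of Irf2 begins 241 and its GAS 224 bases before, and those of Irf8 begin 171 and 153 bases before. None of these matches overlaps another. A match of letters is a description of the sequence and not evidence of binding.

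Irf1 varied more between sample sets than between ROR-γt forms. Its normalized counts were 9388, 9285, 9796 and 6952 in WT-ROR-γt samples 1 to 4 and 7436, 11345, 11959.8 and 7152 in K187R-ROR-γt samples. The highest values, K187R replicates 2 and 3, and the lowest, replicate 4 of each group, belonged to sets 2 and 3. Group means of 8855 ± 1288 and 9473 ± 2532 (SD, n = 4 each) gave a log2 fold change of 0.07 (standard error 0.188, 95% confidence interval -0.35 to 0.49, limma adjusted p = 0.966). Within sets 1, 2 and 3 the difference was -0.37, 0.33 and 0.04, and with the set in the model it was -0.0034. Irf1 lies at chr11:53770014-53778374 on the plus strand, and 3.40% of its exonic bases overlap Gm17334 on the other strand.

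Irf2 had its 3 highest values in the 3 samples of set 2. The WT-ROR-γt samples 1 to 4 read 7507, 8664, 7419 and 7122 normalized counts, and the K187R-ROR-γt samples read 6975, 9424, 8822 and 7539. Set 2 averaged 1.23-fold the other 5 samples. Between groups the means were 7678 ± 678 and 8190.0 ± 1129 (SD, n = 4 each), with a log2 fold change of 0.09, a standard error of 0.108, a 95% confidence interval from -0.16 to 0.33 and a limma adjusted p of 0.928. The within-set differences were -0.10, 0.07 and 0.08. The log2 ratio of Irf1 to Irf2 was 0.20 ± 0.20 in WT-ROR-γt and 0.18 ± 0.22 in K187R-ROR-γt samples, a difference of -0.016 (exact two-sided permutation p = 0.83). Irf2 lies on the plus strand at chr8:46739732-46847458.

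Irf3, the constitutive factor activated by phosphorylation, had close group means. Its normalized counts were 4917, 5153, 5467 and 7180.3 in WT-ROR-γt samples 1 to 4 and 5080.1, 5654, 6488 and 6116 in K187R-ROR-γt samples. WT replicate 4 was the highest of all, WT replicate 1 the lowest, and the K187R-ROR-γt samples lay between them. Means of 5679 ± 1026 and 5834 ± 608 (SD, n = 4 each) corresponded to a log2 fold change of 0.05 (standard error 0.127, 95% confidence interval -0.24 to 0.33, limma adjusted p = 0.965). Irf3 lies at chr7:44997648-45002848 on the plus strand.

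Irf7, the amplifier of the type I interferon response and itself an interferon-induced gene, was high in K187R replicates 2 and 3. WT-ROR-γt samples 1 to 4 held 394, 455, 408 and 352 normalized counts and K187R-ROR-γt samples held 385, 632, 727 and 333. The other K187R-ROR-γt samples, replicates 1 and 4, lay below the WT-ROR-γt values of their own sets. Group means were 402 ± 42.3 and 519 ± 190 (SD, n = 4 each), and the log2 fold change was 0.30 with a standard error of 0.243, a 95% confidence interval from -0.25 to 0.84 and a limma adjusted p of 0.921. The difference was 0.58 within set 2, and -0.06 and -0.08 within sets 1 and 3. Without K187R replicate 3 the log2 fold change was 0.11, and without K187R replicate 4 it was 0.49. Irf7 had the fewest reads of the family, at least 332 per sample, which gives a counting error of 5.49% at most. It lies on the minus strand at chr7:141262706-141266481.

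Irf5, an inflammatory factor of myeloid and B cells, had the largest share of variance between the sample sets in the family. The WT-ROR-γt samples 1 to 4 read 711, 1207, 759 and 817 normalized counts, and the K187R-ROR-γt samples read 794, 1312, 1470.5 and 834. All 3 samples of set 2 lay above the other 5, and set 2 averaged 1.69-fold the rest. Between groups the means were 873 ± 226 and 1103 ± 340 (SD, n = 4 each), and the log2 fold change was 0.32 with a standard error of 0.237, a 95% confidence interval from -0.22 to 0.85 and a limma adjusted p of 0.921. Within sets 1, 2 and 3 the difference was 0.11, 0.20 and 0.03, and with the set in the model it was 0.12 (limma adjusted p = 0.782). It was 0.16 without K187R replicate 3 and 0.48 without WT replicate 2. Of the exonic bases of Irf5 (chr6:29526625-29541871, plus strand), 14.1% overlap Tnpo3 on the other strand, and the strand setting of the counting is not given in the sources used here.

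Irf9, the DNA-binding subunit of the interferon-activated complex, varied little among WT-ROR-γt samples. These samples 1 to 4 read 5033, 5283, 5276 and 5363 normalized counts, and the K187R-ROR-γt samples read 5064, 5898, 6459 and 5473. K187R replicates 2, 3 and 4 lay above all WT-ROR-γt samples, and K187R replicate 1 lay among the lowest. Means of 5239 ± 143 and 5724 ± 597 (SD, n = 4 each) gave a log2 fold change of 0.12 with a standard error of 0.0824, a 95% confidence interval from -0.06 to 0.31 and a limma adjusted p of 0.921. Within sets 1, 2 and 3 the difference was -0.03, 0.22 and 0.03. Irf9 lies at chr14:55603571-55610030 on the plus strand, where 2.28% of its exonic bases overlap Rnf31 on the same strand.

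In IRF transcripts, as in the median over all genes, the sample set took a larger share of variance than the group. In all 8 genes the sets accounted for more of the variance between samples than the ROR-γt form did. The median share was 73.6% by set and 12% by group, beside 51.6% and 9.11% over all genes. Since 3 sets use more terms than 2 groups, the set share is larger by construction, with 28.6% by set and 14.3% by group from the terms alone. The sets were also cut from these same samples, so a large set share over many genes is partly built in. Both shares are descriptions without a test. The set share was highest in Irf5 at 95.3% and Irf2 at 90.0%, and lowest in Irf9 at 55.6%, while the group share ran from 0.0492% in Irf4 to 29.3% in Irf9.

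Set 2 carried more Irf2, Irf5 and Irf7. In these 3 of 8 genes all samples of set 2 lay above the other 5 samples, against 8.46% of all genes, and in 0 of 8 did they all lie below, against 5.65% (14.1% in either direction). Set 1 stood apart in 2 of 8 genes, with Irf5 and Irf9 below the other samples, against 13.9% of all genes in either direction, and above them in 0 of 8, against 6.05%. Both samples of set 3 lay below the other 6 in Irf1, Irf4 and Irf7, 3 of 8 genes against 23.8% of all genes in either direction. With so few genes these counts describe the members only. With the sample set in the limma model, 0 of 8 IRF genes passed an adjusted p of 0.05 and 0.00589% of all genes did, and the adjusted p-values of the 8 lay between 0.782 and 0.999. DESeq2 with the set called 0 of 8 beside 0.848% of all genes.

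**Figure D4:**
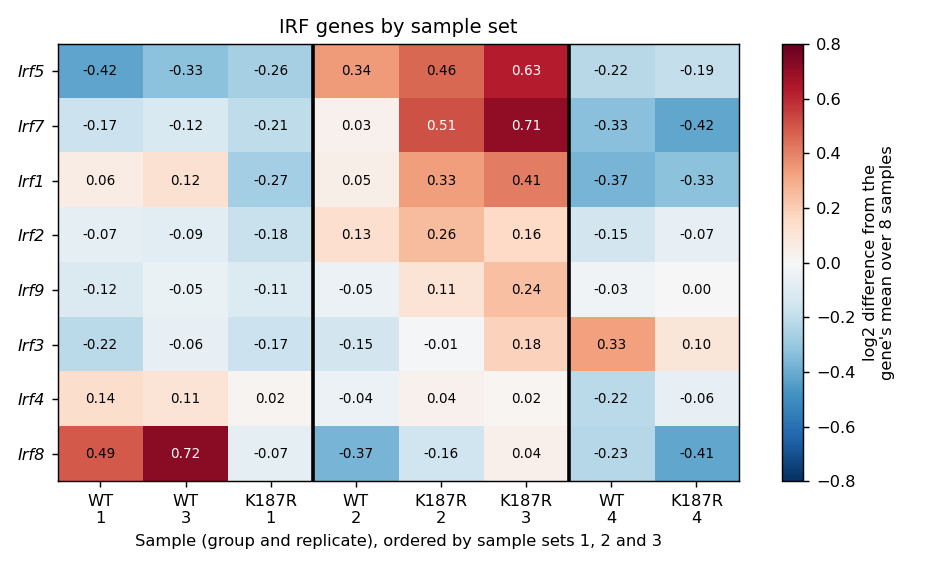
Log2 difference of each IRF gene from its own mean over the 8 samples, with samples in columns ordered by sample set (black lines) and the value written in each cell. Irf5, Irf7, Irf1 and Irf2 are positive in all samples of set 2, Irf8 reaches 0.49 and 0.72 in WT replicates 1 and 3, and Irf4 stays between -0.22 and 0.14.

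Several members moved together across samples. After each group's mean was subtracted, Pearson's r over the 8 samples was 0.93 for Irf1 with Irf7, 0.91 for Irf2 with Irf5, 0.86 for Irf5 with Irf7 and 0.82 for Irf4 with Irf8, and -0.75 for Irf3 with Irf4. When each set's mean was subtracted instead, Irf1 with Irf7 kept 0.72, Irf5 with Irf7 had 0.79 and Irf7 with Irf9 had 0.95. By contrast, Irf2 with Irf5 fell to -0.15 and Irf4 with Irf8 to 0.43, and Irf3 with Irf4 moved to -0.19. The samples fall into sets, so these coefficients are descriptions of 8 points and carry no p.

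The genes most like each member over the 8 samples were taken from 12134 genes with a mean of at least 100, by Pearson's r of log2 values. Irf4 was closest to Ranbp1 (0.99), Gfm1 and Dntt, and Irf8 to Map4 (0.99), Sec24b and Slc43a3. Nearest to Irf1 were Tnfrsf10b (0.98), Ly6c1 and Apobec3, to Irf2 Ticam2 (0.98), Gngt2 and Il1rn, and to Irf3 Cln3 (0.99), Lgals4 and Fam219a. Irf5 ran with Ncf1 (0.99), Tnfaip2 and Nod2, Irf7 with Zbp1 (0.98), Slco3a1 and Pygb, and Irf9 with Cxcr5 (0.98), Mapk11 and Tnf. With 8 samples in 3 sets such values were common, and between 0.404% and 3.68% of the genes searched exceeded an r of 0.9 with a given member.

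Of the 12 transcription factors that bind DNA next to IRF proteins, Fosl2 had the smallest p. Fosl2, an AP-1 subunit, read 11780.3, 9162, 12583 and 8907 normalized counts in WT-ROR-γt samples 1 to 4 and 7398, 7089, 7646 and 7526 in K187R-ROR-γt samples. All K187R-ROR-γt samples lay below all WT-ROR-γt samples. The log2 fold change was -0.50 with a standard error of 0.115. The limma adjusted p was 0.921, while DESeq2 gave an adjusted p of 0.0263, and 0.00472 with the sample set. In simulated counts without sample sets, 18.6% of the genes called by DESeq2 were false calls, against 4.23% for limma. Batf, which binds with IRF4, averaged 2009.9 ± 239 in WT-ROR-γt and 2405 ± 308 in K187R-ROR-γt samples, a log2 fold change of 0.26 (limma adjusted p = 0.921). In the whole list limma and edgeR gave 0 of 12 genes an adjusted p under 0.05, DESeq2 1 and DESeq2 with the sample set 2, the second being Spib, an ETS factor, at 0.0299. Over all genes DESeq2 called 0.183%, and 0.848% with the sample set. At an unadjusted limma p under 0.05, 1 of 12 was lower and 0 higher, beside 1.64% and 2.75% of all genes. The median log2 fold change was 0.07.

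The upstream kinases, sensors and adaptors of IRF signalling showed no gene past the threshold. Of 13 tested, among them Tbk1, Ikbke, Mavs, Myd88 and Jak1, 0 had an adjusted or an unadjusted limma p under 0.05, 10 had a positive log2 fold change, and the median was 0.14. Proteins that bind or modify IRF factors gave the same count, 0 of 13, with a median of 0.02. edgeR and DESeq2, the latter with or without the sample set, called 0 genes in either list. Among the proteins that bind or modify IRF factors, the smallest limma p-values belonged to Trim21 and Irf2bpl. Trim21, a ubiquitin ligase acting on IRF proteins, was at 0.16 on the log2 scale. Irf2bpl, a relative of the IRF2-binding corepressors, was at 0.12 (limma adjusted p = 0.921 for both).

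Interferon-stimulated genes, the classical targets of IRF7 and IRF9, were on average highest in set 2, as Irf7 was. None of 20 passed an adjusted p of 0.05 by limma, edgeR or DESeq2. At an unadjusted limma p under 0.05, 4 of 20 were higher in K187R-ROR-γt and 0 lower, beside 2.75% and 1.64% of all genes. All 20 had a positive log2 fold change, beside 48.4% of all genes, and the median was 0.34. Oas2, an enzyme that senses double-stranded RNA, averaged 33.5 ± 6.85 in WT-ROR-γt and 67.1 ± 22.0 in K187R-ROR-γt samples, a log2 fold change of 0.94 (limma adjusted p = 0.921). Its relative Oas3 had a log2 fold change of 0.69 (limma adjusted p = 0.921). In the mean log2 value of the list, set 2 ran from 7.97 to 8.45 and the other 5 samples from 7.30 to 7.80. Single genes followed this less often, with all samples of set 2 above the other 5 in 7 of 20, against 8.46% of all genes. Oas2 had its lowest value, 25.0, in WT replicate 2 of set 2. The samples of set 2 were the highest for Irf7 as well, with 455 to 727 normalized counts against 333 to 408.

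Genes known to be driven by IRF1 were on average ordered like Irf1 at the extremes. Of 15, 0 passed an adjusted p of 0.05 by limma, edgeR or DESeq2. DESeq2 with the sample set called 1 (Ciita, the activator of MHC class II genes, adjusted p = 0.00282), beside 0.848% of all genes. At an unadjusted limma p under 0.05, 1 was higher and 1 lower, beside 2.75% and 1.64% of all genes. The median log2 fold change was 0.16. Psmb10, an immunoproteasome subunit, averaged 1777 ± 127 in WT-ROR-γt and 2195 ± 218 in K187R-ROR-γt samples, a log2 fold change of 0.30 (limma adjusted p = 0.921). Gbp2, a guanylate-binding protein, had a log2 fold change of -0.41 (limma adjusted p = 0.921). The mean log2 value of the list was highest in K187R replicates 2 and 3, at 12.37 and 12.46, where Irf1 was also highest, and lowest in replicate 4 of both groups, at 11.68 and 11.72.

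**Figure D5:**
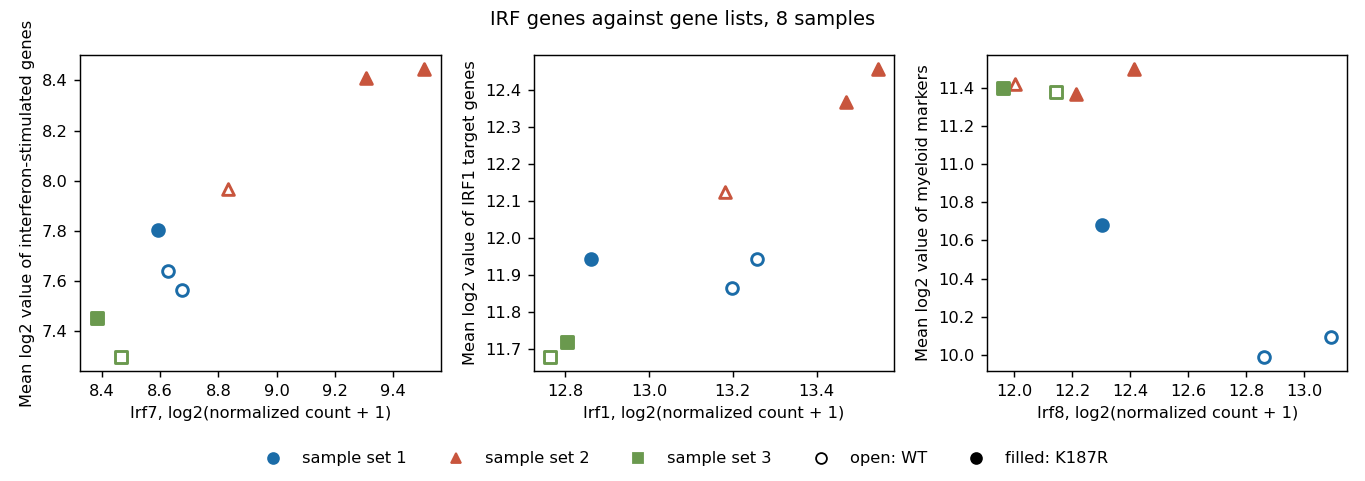
An IRF gene on each x axis, log2(normalized count + 1), against a gene list's mean log2 value on the y axis, for the 8 samples marked by sample set, open for WT-ROR-γt and filled for K187R-ROR-γt. Irf7 and interferon-stimulated genes are both highest in set 2, Irf1 and its targets are both lowest in set 3, and the 2 samples with the most Irf8 have the lowest myeloid marker values, 9.99 and 10.09.

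Known targets of IRF4 had fold changes in both directions, beside a log2 fold change of 0.0046 for Irf4 itself. Of 18 genes, 0 passed an adjusted p of 0.05 by limma or edgeR and 1 did by DESeq2, beside 0.183% of all genes. At an unadjusted limma p under 0.05, 4 were higher and 1 lower, beside 2.75% and 1.64% of all genes. The median log2 fold change was 0.10. Ctla4, an inhibitory receptor, averaged 15679 ± 2378 in WT-ROR-γt and 10925 ± 622 in K187R-ROR-γt samples with no overlap between groups, a log2 fold change of -0.51 (limma adjusted p = 0.921, DESeq2 adjusted p = 0.00776). Ccr6, the chemokine receptor typical of Th17 cells, averaged 1191 ± 393 and 2399 ± 681, a log2 fold change of 1.02 (limma adjusted p = 0.921, DESeq2 adjusted p = 0.0537). With the sample set in the model Ccr6 passed, as the only gene called by limma (adjusted p = 0.0157), and by DESeq2 (adjusted p = 2.71e-16). The sets were cut from these same samples, and models with the set were not simulated. DESeq2 with the sample set called 5 of the 18, Ccr6, Il17a, Il17f and Il23r higher and Ctla4 lower, beside 0.848% of all genes. A list of 10 Th17 genes, partly the same genes, had 0 past an adjusted p of 0.05 by limma and edgeR. DESeq2 called 1, beside 0.183% of all genes, and 5 with the sample set, beside 0.848%. At an unadjusted limma p under 0.05, 5 were higher, beside 2.75% of all genes, and the median was 0.40. Il1r1, the receptor for interleukin-1, had the smallest p, with a log2 fold change of 0.88 (limma adjusted p = 0.344, DESeq2 adjusted p = 3.73e-05).

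Because Irf5 and Irf8 are abundant in other blood cells, markers of such cells were read in the same samples. Of 8 B cell markers, 0 passed an adjusted p of 0.05 by limma, edgeR or DESeq2. At an unadjusted limma p under 0.05, 1 (Cd22) was higher, beside 2.75% of all genes. The median log2 fold change of these B cell markers was 0.43, and Ebf1 had a log2 fold change of 0.49. Their summed level ran from 478 to 1596 normalized counts in WT-ROR-γt and from 585 to 2083 in K187R-ROR-γt samples. Of the 10 myeloid markers 0 passed by limma with or without adjustment, with a median of 0.46, and the 2 smallest p-values belonged to Adgre1 at 1.09 and Mpeg1 at 0.47 on the log2 scale. Among dendritic cell markers 5 were tested and 0 passed by limma with or without adjustment, with a median of 0.68, Itgax at 0.68 and Flt3 at 0.73. DESeq2 with the sample set called Itgax (adjusted p = 0.0202), beside 0.848% of all genes, while Xcr1, Clec9a and Siglech had means under 10. The summed level of all dendritic cell markers found was 2077 to 2978 in WT-ROR-γt and 2398 to 4139.7 in K187R-ROR-γt samples. Of these markers Bst2 alone averaged 1214.

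The 5 dendritic cell markers tested were on average highest in the samples with the most Irf5. Their mean log2 value was 8.54 to 9.0 in set 2 and 7.55 to 8.18 in the other 5 samples. In 4 of the 5 markers, all but Bst2, every sample of set 2 lay above the others, against 8.46% of all genes. Bst2 is also among the interferon-stimulated genes listed, and Xcr1, Clec9a and Siglech, with means under 10, did not enter the mean. Myeloid markers did not follow that division, with 11.37 to 11.50 in set 2 and 11.38 to 11.40 in set 3, where Irf5 was 817 and 834. T cell markers had 0 of 8 past an adjusted p of 0.05 by limma, edgeR or DESeq2. At an unadjusted limma p under 0.05, 1 of them (Cd5, at 0.27) was higher, beside 2.75% of all genes. Their median was 0.09, with Lck at 0.15. Of 5 CD8 and natural killer markers 0 passed with adjustment by these tools. At an unadjusted limma p under 0.05, 1 of the 5 (Klrd1, at -0.28) was lower, beside 1.64% of all genes. The median was -0.12, with Prf1 at 0.21, and Ncr1 had a mean under 10. Cd209a, a further dendritic cell marker, was absent from the genes listed. No marker that was present was at 0 in every sample, and the part of these cells in the Irf5 and Irf8 values was not tested.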

How the data were processed

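RNA seq data of 8 samples, 4 per group by the labels, were used. Reads were, per the labels and the methods of the study, trimmed, aligned to GRCm38 with HiSat2 and counted with featureCounts on GENCODE genes. The methods name a poly-A library kit, the labels another kit and total RNA. The authors deposited a signal for every gene, its reads divided by a size factor per sample as DESeq2 does, and 100% were whole multiples of 1 read (tolerance 0.01 read), so reads were recovered. No column was left unused (0). The smallest library held 52456804 and the largest 74676721 reads, so that 3 reads, taken as the floor for counting error alone, equal between 2.54 and 3.56 normalized counts.

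The main test was limma (lmFit, eBayes with trend) on log2(normalized count + 1) for the 16982 genes whose mean was 10 or more, with Benjamini-Hochberg adjustment over all of them and a threshold of 0.05. Fold changes are on that log2 scale. Single genes and ratios also had an exact two-sided permutation test. edgeR's quasi-likelihood test and DESeq2 on recovered reads, other pseudocounts (0.5 and 5), filters, scaling, the sample set, the replicate number as a block and each sample left out were alternatives. Sample sets came from average-linkage clustering on correlation, cut at 3. Scripts were tested on simulated counts. There 18.6% of the genes called by DESeq2 were false calls, against 4.23% for limma and 4.11% for edgeR. Models with the sample set or the replicate block were not simulated.

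Members, lists and tests were chosen with earlier results of these data known. Named in the text are all members, partners and upstream genes with an unadjusted p under 0.05, the 2 smallest p-values of every other list, the 3 genes most like each member, and Xist. A further gene of that rule is not reported here. Batf and a few further list genes were named after their values were seen. Protein sequences were not analysed here. Coordinates and exon lengths are those of GRCm38 with GENCODE M21 in place of M15, and 22784 of 22829 identifiers matched. Promoters are from RefSeq, GRCm38.p6. Statistics ran in DESeq2 1.42.0, limma 3.58.1 and edgeR 4.0.16 under R 4.3.3, and the remaining steps in pandas 2.3.3, scipy 1.17.1 and numpy 2.4.6 under Python 3.11.15, with matplotlib 3.10.9 for the figures.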

Additional observations from a re-analysis of the deposited data

Results flagged for a closer look

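In WT-ROR-γt samples Irf1 was lowest in replicate 4, with a log2 value of 12.76, while the nearest of the other 3 samples was at 13.18 and the farthest at 13.26. This gap was 0.844 of the range of the group, which is past Dixon's 95% critical value for 4 samples. Replicate 4 of the K187R-ROR-γt group, the other sample of set 3, was also the lowest of its group for Irf1. Of 20 groups examined 1 was past the critical value, and chance gives about 1.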

How the results depend on the processing

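In 22 alternatives no IRF gene passed an adjusted p of 0.05, and the smallest was 0.316, for Irf8 in DESeq2 with the replicate block. The number of genes past an adjusted p of 0.05 was 0 by limma and by edgeR, 1 with the sample set as a factor, 31 by DESeq2 (17 higher and 14 lower), 144 by DESeq2 with the sample set, 174 by DESeq2 with the replicate block (1.02% of genes tested), and from 0 to 4 with each sample left out, 4 without WT replicate 4. Irf5, Irf8, Irf9 and the ratio of Irf4 to Irf8 kept their direction in all alternatives run, though single samples moved Irf2 (0.016 to 0.16), Irf5 (0.16 to 0.48), Irf7 (0.11 to 0.49), Irf8 (-0.48 to -0.11), Irf9 (0.062 to 0.18) and the ratio (0.16 to 0.47). Irf1 turned to -0.0034 with the sample set as a factor, to -0.0017 by DESeq2 with the sample set and to -0.24 without the samples of set 2, and ran from -0.055 to 0.19 with each sample left out. Without the samples of set 2 also Irf2 turned to -0.019, Irf3 to -0.052, Irf4 to -0.033 and Irf7 to -0.10. Irf4 turned to -0.00044 by DESeq2. With each sample left out Irf3 ran from -0.015 to 0.17, Irf4 from -0.067 to 0.052 and the log2 ratio of Irf1 to Irf2 from -0.10 to 0.069. The cause was not tested, and these values lie within the intervals given for each gene. Samples with the same replicate number correlated in their deviations from the group means by 0.59, 0.66, -0.09 and 0.63, so the number was not taken as a pairing. As a hint from the data, each sample except replicate 3 of either group correlated best with its own number. With the replicate block the log2 fold changes were the same by construction, limma called 0 genes (2046 at an unadjusted p under 0.05, against 746 without it) and the adjusted p-values of the 8 IRF genes lay between 0.426 and 0.982. Depth is not the main limit for Irf4, with at least 35180 reads per sample, and sets a counting error of up to 5.49% for Irf7.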
